A study of Homo sapiens with 60 samples.

Results

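The 3 RNA-seq libraries of SW1783 cells given 100 µg/mL of a water extract of Aucklandiae Radix (the medium dose) were compared with the 3 libraries given 20 µg/mL (the low dose). These 6 libraries of 60 were chosen by their treatment labels. SW1783 is an established human astrocytoma line, and the study exposed it for 24 h to vehicle, wortmannin or a hot water extract of 1 of 6 medicinal plants at 3 doses. Cells were kept in L-15 medium with fetal bovine serum. The Aucklandiae series has a further group at 500 µg/mL (the high dose), so that the comparison is the lower of its 2 steps of 5-fold in dose. Nothing but the dose of extract separates the groups in the labels, which give no DMSO content for the extracts. The vehicle libraries held DMSO alone, at 0.1% per the sample labels and 2% per the series description.

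Aucklandiae Radix is the dried root of the costus plant, a source of sesquiterpene lactones, compounds whose reactive groups bind to thiols. Cells meet such electrophiles through the transcription factor NRF2, which is held back by KEAP1 and drives quinone reductases, glutathione synthesis and the iron store ferritin. Growth factor and stress kinase signals reach other early genes, among them the AP-1 subunit FOSL1 and the feedback inhibitors of the ERK pathway. ANGPTL4 encodes a secreted inhibitor of lipoprotein lipase and is read from many signals.

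Raising the dose from 20 to 100 µg/mL changed 8 of 16964 tested genes at an adjusted p under 0.05 by edgeR's quasi-likelihood test, which is 0.0472% of the genes tested. Of these, 5 rose, among them ANGPTL4, FOSL1, NQO1 and FTH1, and 3 fell, LYPD1, SFRP2 and CLIC3. The changes were small: none reached 2-fold, and the largest, that of ANGPTL4, was 1.53-fold between the group means. Each of the 8 genes had moved further in the same direction at 500 µg/mL.

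Total expected counts were 29.47, 18.64 and 18.94 M in the low libraries and 26.81, 27.74 and 23.22 M in the medium ones, within 9.34 to 35.35 M over the series. All 6 belong to 1 library set of 18, read from the first part of the library names, and the vehicle libraries are in another, so a treatment and a set difference cannot be told apart there and vehicle levels are given without a test. Whether a group's libraries stem from separate cultures is in no label, so p-values reflect only the spread between libraries of a group, which may be technical. That spread was taken over the groups of all 18 libraries of the set, not over these 6 alone. Across genes, log2 CPM (counts per 1 M, on library totals normalised by the trimmed mean of M values, TMM) correlated at 0.9899 to 0.9922 between a medium and a low library, and at 0.9892 to 0.9899 between low libraries. Medium libraries correlated at 0.9905 to 0.9923 among themselves. Medium and low libraries thus correlated no less than low libraries did among themselves. Their range overlapped that among medium libraries and was slightly lower at both ends. Of 12 astrocyte and glioma markers, VIM and CD44 made up most of the sum (4580 and 2747 CPM in the low group), while GFAP, S100B, AQP4, ALDH1L1, SLC1A2 and SOX2 were under 1 CPM and AQP4 was at 0 there. The summed level of these markers was 7982 to 8192 CPM in low and 8229 to 8368 CPM in medium libraries. Sums of neuron and oligodendrocyte markers were low in both groups. They were 34.3 to 35.1 against 31.2 to 33.1 CPM for 6 neuron markers, and 7.12 to 8.69 against 7.35 to 8.05 CPM for 6 oligodendrocyte markers. The sums of 6 microglia and leukocyte markers (161 to 195 against 187 to 203 CPM) were carried by CD68 (means of 169 and 183 CPM), with AIF1 and CX3CR1 near 0. Endothelial markers (33 to 38.6 against 36.3 to 39.3 CPM) were carried by KDR, with CDH5 near 0. Epithelial markers (135 to 149 against 131 to 137 CPM) were carried by KRT18 (means of 123 and 116 CPM), with EPCAM near 0. Their part in the results was not tested.

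Sequence before the RefSeq start is shown for 3 of the called genes: ANGPTL4, the largest rise; NQO1, the textbook NRF2 target; and LYPD1, which fell. They were chosen after their values were seen. The promoter table from RefSeq (GRCh38.p14) held 5 of the 8 called genes, and the 250 bases before each RefSeq start were searched on both strands for 4 motifs. These were GCGTG, the core bound by the aryl hydrocarbon receptor, TGACNNNGC, the core of the antioxidant response element bound by NRF2, TGANTCA, bound by AP-1, and ACGTG, the core of the hypoxia response element. Of 35116 promoters of this length in the table, 32.2%, 10.9%, 6.57% and 18.5% held them, in that order. Capitals mark the matches, and overlapping matches run together.
ANGPTL4 (chr19:8363905-8364154, plus strand): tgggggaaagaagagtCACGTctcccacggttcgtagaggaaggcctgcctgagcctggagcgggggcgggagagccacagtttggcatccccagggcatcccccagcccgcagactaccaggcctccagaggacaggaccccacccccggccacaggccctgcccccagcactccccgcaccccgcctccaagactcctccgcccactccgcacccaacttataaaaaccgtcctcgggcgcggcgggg
NQO1 (chr16:69726561-69726810, minus strand): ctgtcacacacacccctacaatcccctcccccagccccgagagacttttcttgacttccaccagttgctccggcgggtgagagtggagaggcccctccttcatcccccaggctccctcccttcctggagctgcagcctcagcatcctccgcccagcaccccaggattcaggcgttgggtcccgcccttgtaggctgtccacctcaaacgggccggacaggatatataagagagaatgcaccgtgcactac
LYPD1 (chr2:132671527-132671776, minus strand): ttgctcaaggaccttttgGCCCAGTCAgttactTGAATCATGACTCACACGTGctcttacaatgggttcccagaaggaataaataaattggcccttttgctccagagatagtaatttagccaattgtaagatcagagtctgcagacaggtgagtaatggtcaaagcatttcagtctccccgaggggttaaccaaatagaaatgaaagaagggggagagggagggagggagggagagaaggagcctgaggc
The ANGPTL4 window held 1 ACGTG match, 234 bases before the start, and none of the other motifs. The NQO1 window held no match to any of the 4, which says only that these letters are not in it. The LYPD1 window held 1 TGACNNNGC, 2 TGANTCA and 2 ACGTG matches, all of them in its first bases. Its 2 ACGTG matches are 1 site, CACGTG, which matches on both strands. The table gives LYPD1 another start, and the window before that one (chr2:132670206-132670455) held 3 ACGTG matches and none of the others. Of these 3 matches, 2 are again 1 CACGTG site matched on both strands. The RefSeq starts are not the outer bounds of the genes given below: the ANGPTL4 and NQO1 windows and the other LYPD1 window lie inside those bounds, and the LYPD1 window shown lies partly inside them.

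ANGPTL4 encodes angiopoietin-like 4, a secreted inhibitor of lipoprotein lipase that hypoxia and fatty acid sensing receptors can induce (ENSG00000167772, GRCh38 chromosome 19, 8363289 to 8374373, plus strand). Its level was 13.4, 12.2 and 11.6 CPM in the low libraries and 18.2, 20.6 and 18.3 CPM in the medium libraries. Every medium library lay above every low one, and the low libraries lay at the level of vehicle (13.5, 11.8 and 13.2 CPM). The log2 fold change was 0.61 (SE 0.09, adjusted p = 0.00696). At 500 µg/mL the gene reached 91.8, 99.4 and 84.8 CPM, a log2 fold change of 2.27 over the medium dose (adjusted p = 2.62e-14). Most of its rise over the Aucklandiae doses thus fell in the upper step.

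FOSL1, which encodes the AP-1 subunit FRA-1 (ENSG00000175592, chromosome 11, 65892049 to 65900573, minus strand), was at 281, 295 and 293 CPM at the low dose and 400, 389 and 373 CPM at the medium dose. The 3 medium libraries stood above the 3 low ones, and the vehicle libraries (285, 283 and 309 CPM) were near the low dose. The log2 fold change was 0.42 (SE 0.07, adjusted p = 0.0211), followed by 0.52 between the medium and the high dose (adjusted p = 1.63e-05).

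NQO1 encodes a quinone reductase driven by NRF2 and by the aryl hydrocarbon receptor (ENSG00000181019, chromosome 16, 69706996 to 69726951, minus strand). It was at 197, 183 and 185 CPM at the low dose and 225, 226 and 221 CPM at the medium dose, with a tight medium group (224 ± 2.56 CPM, SD, n = 3). The log2 fold change was 0.25 (SE 0.04, adjusted p = 0.0216). Vehicle libraries had 159, 155 and 159 CPM and high dose libraries 299, 291 and 298 CPM. The 4 groups were thus in the order of dose and did not overlap.

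FTH1 encodes the heavy chain of ferritin, the cell's iron store (ENSG00000167996, chromosome 11, 61959718 to 61967660, minus strand). It was at 1409, 1333 and 1281 CPM at the low dose and 1626, 1598 and 1534 CPM at the medium dose. All medium libraries lay above all low ones, and the log2 rise was 0.24 (SE 0.04, adjusted p = 0.0284). The high dose brought 2322, 2318 and 2279 CPM and vehicle had 1174, 1252 and 1233 CPM. The genome holds many near-identical pseudogene copies of ferritin genes, among which the authors' counting could split reads, so the level of FTH1 is uncertain.

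Of the 3 genes that fell, LYPD1, a membrane-anchored protein of the family that binds nicotinic receptors (ENSG00000150551, chromosome 2, 132644853 to 132671579, minus strand), was at 38.7, 38.4 and 37.8 CPM at the low dose. It was at 32.5, 32.0 and 31.1 CPM at the medium dose, below every low library, and fell by 0.27 on the log2 scale (SE 0.05, adjusted p = 0.0216). The vehicle libraries (37.5, 38.7 and 35.4 CPM) lay near the low dose and the high dose libraries (16.9, 15.8 and 15.5 CPM) far below.

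SFRP2 encodes a secreted Wnt inhibitor (ENSG00000145423, chromosome 4, 153780592 to 153789120, minus strand). Its levels of 43.1, 42.6 and 42.9 CPM at the low dose were nearly the same in the 3 libraries, and those at the medium dose, 34.8, 35.2 and 31.9 CPM, were lower and more spread. It fell by 0.33 (SE 0.06, adjusted p = 0.0216). Vehicle libraries (51.0, 50.9 and 51.3 CPM) were above the low dose, and high dose libraries were at 22.3, 21.1 and 24.2 CPM.

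CLIC3, a chloride intracellular channel family member (ENSG00000169583, chromosome 9, 136994635 to 136996803, minus strand), was at 9.65, 9.39 and 9.05 CPM at the low dose, from at least 171 counts per library, and at 6.25, 7.10 and 5.85 CPM at the medium dose. The groups did not overlap, and it fell by 0.55 (SE 0.09, adjusted p = 0.0216). It was at 4.17, 4.16 and 4.03 CPM at the high dose and 9.45, 8.40 and 8.16 CPM in vehicle. As the plot of these 7 genes by library shows, the medium dose lay between the low and the high dose for each of them.

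**Figure D1:**
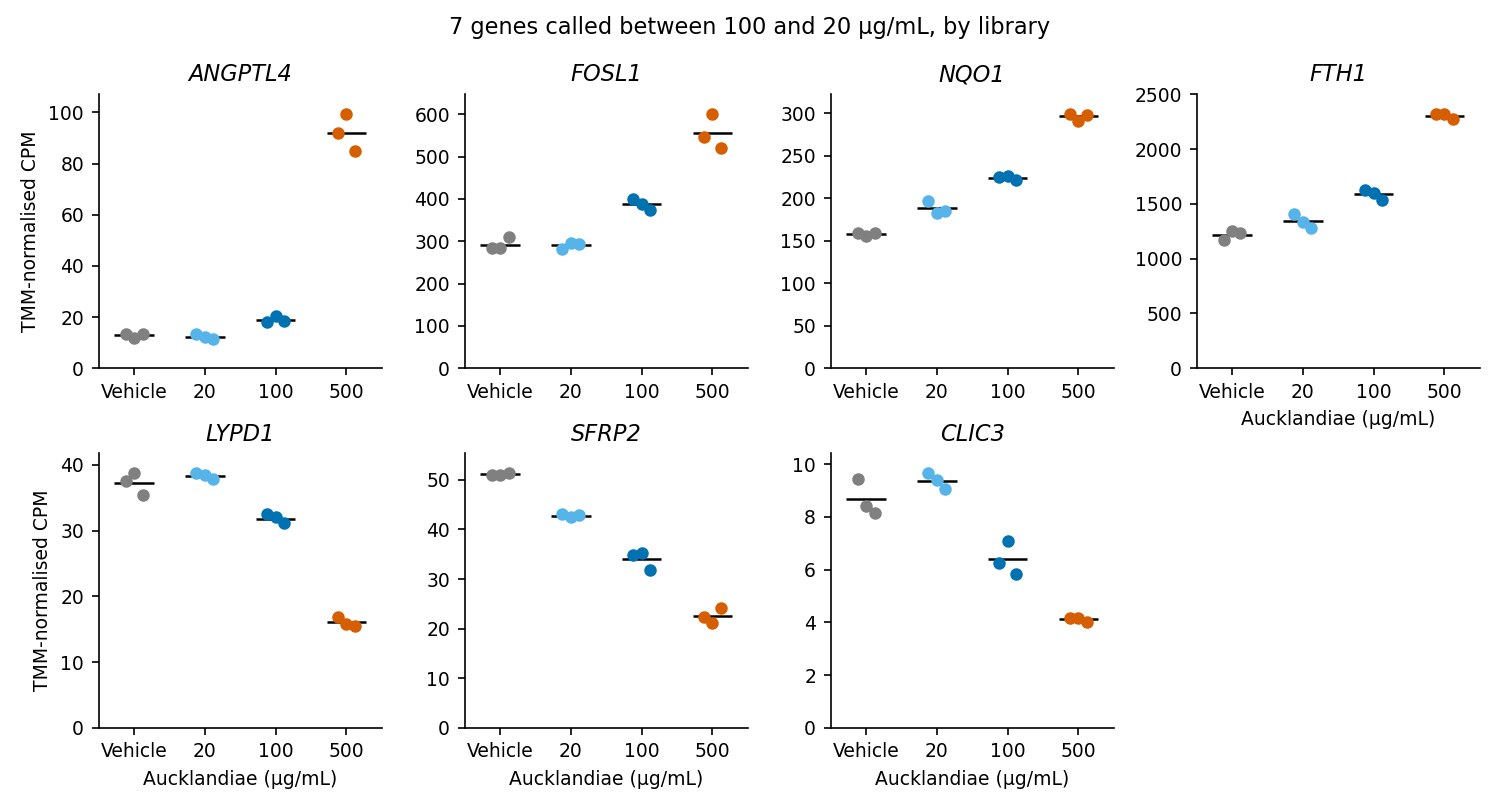
TMM-normalised CPM (linear axes from 0) of 7 called genes in the 3 libraries each of vehicle and of 20, 100 and 500 µg/mL Aucklandiae extract. Points are libraries and lines are group means. At 100 µg/mL ANGPTL4 was at 18.2 to 20.6 CPM and at 500 µg/mL at 84.8 to 99.4 CPM, while CLIC3 went from 9.05 to 9.65 CPM at 20 µg/mL to 5.85 to 7.10 CPM and then 4.03 to 4.17 CPM.

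Over all 16964 genes, 1017 (6.00%) had an unadjusted p under 0.05, and the median log2 fold change was -0.003. All 3 medium libraries lay above all 3 low libraries for 876 genes (5.16%) and below them for 996 genes (5.87%), or 1095 and 837 under upper quartile scaling, which turns the balance of the directions. Counts of members whose groups do not overlap are read against these shares below. Counts of called members are read against the 5 of all 16964 genes that rose and the 3 that fell. The calls rest on all 6 libraries: with any 1 of them left out, between 1 and 4 of the 8 genes were still called, although their fold changes kept their size. ANGPTL4 was called in 5 of the 6 such fits (not without low replicate 3, adjusted p = 0.0535). NQO1, FTH1 and CLIC3 were each called in 1, and FOSL1, LYPD1 and SFRP2 in none. A fit of the 6 libraries alone, without the others of their set, called 3 of the 8, ANGPTL4 and FOSL1 among them. A fit of all 60 libraries called 2 of the 8, ANGPTL4 among them, and DESeq2 called 7 of the 8, giving CLIC3 no adjusted p.

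**Figure D2:**
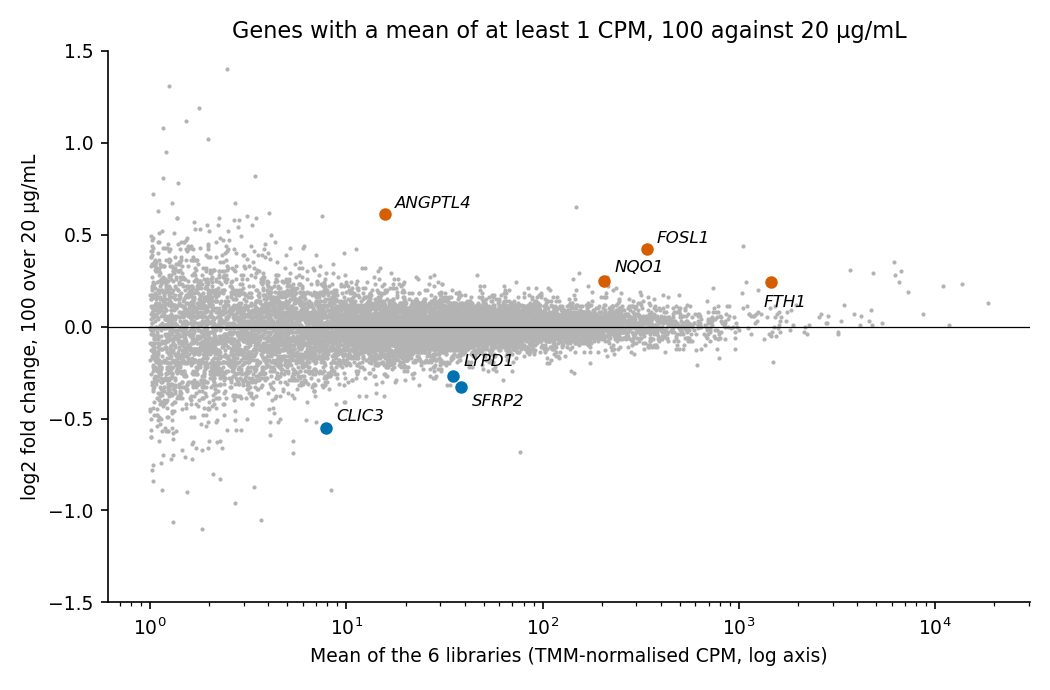
Log2 fold change of the medium over the low dose (vertical axis) against the mean of the 6 libraries in TMM-normalised CPM (horizontal log axis) for 13853 genes with a mean of at least 1 CPM; 4 genes past a log2 fold change of 1.5 lie outside the plot. Coloured points are 7 called genes that rose (orange) or fell (blue), and they stand at the edge of a cloud that narrows with level, from CLIC3 at the left to FTH1 at the right.

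Next to the threshold, with an adjusted p of 0.0504 each, stood CDCP1, PBXIP1 and MFSD3, named after their values were seen. CDCP1, a transmembrane glycoprotein that SRC family kinases phosphorylate, was at 193, 202 and 201 CPM at the low dose and 231, 232 and 233 CPM at the medium dose (log2 0.22), and at 393, 417 and 391 CPM at the high dose. PBXIP1, a partner of PBX homeodomain factors, was at 35.7, 39.8 and 36.5 CPM and then 30.6, 30.7 and 28.2 CPM (log2 -0.32). MFSD3, a member of the major facilitator family of transporters, was at 13.7, 13.7 and 12.2 CPM and then 10.1, 10.3 and 10.0 CPM (log2 -0.38), and its high dose libraries were at 10.1, 9.80 and 10.3 CPM. Groups did not overlap for any of the 3, and MFSD3 was the one of them whose medium and high dose libraries were at the same level.

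Of 35 tested NRF2 targets, 2 rose (NQO1 and FTH1) and none fell, where 5 of all 16964 genes rose and 3 fell. Their median log2 fold change was 0.074, against -0.003 over all genes, and 30 of the 35 were above 0. All medium libraries lay above all low ones for 13 members (37.1%), among them NQO1, FTH1 and the light chain FTL, both subunits of the glutathione-making ligase (GCLC and GCLM), the cystine carrier SLC7A11, the thioredoxin reductase TXNRD1, SRXN1, OSGIN1, PIR, TRIM16 and TRIM16L. The aldo-keto reductase AKR1C3 was the 1 member with all medium libraries below, at -0.30.

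Within that list FTL was at 1367, 1298 and 1375 CPM and then 1590, 1607 and 1551 CPM (log2 0.23, adjusted p = 0.196). SRXN1, which encodes sulfiredoxin, was at 103, 99.9 and 93.0 CPM and then 114, 115 and 114 CPM (log2 0.21, adjusted p = 0.251). Both had groups that did not overlap and did not pass the test. HMOX1, the heme oxygenase, is the member most often used as a readout of electrophile stress. Its medium libraries (71.1, 71.9 and 62.5 CPM) overlapped the low ones (66.8, 63.1 and 56 CPM), with a log2 fold change of 0.14 (adjusted p = 0.787). Its high dose libraries, at 154, 151 and 143 CPM, were well apart from both. The regulators had log2 fold changes near 0, of -0.02 for NFE2L2, which encodes NRF2, and -0.03 for KEAP1 (adjusted p = 0.997 and 0.994).

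Against the low dose, the high dose called 2805 of the 16964 genes (16.5%), 1437 of them higher and 1368 lower. Against the medium dose it called 1456 (8.58%). Counts of list members that rose or fell between the low and the high dose are read against these numbers. These comparisons share libraries with that of the medium and low doses, so their values are only set side by side. Of the NRF2 list, 29 members rose and none fell between the low and the high dose, with a median of 0.307. All 8 genes called between the medium and low doses were called in both of the others, in the same directions.

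Growth signalling genes had mostly positive values. None of 16 ERK feedback genes was called, their median was 0.096, and 5 (31.2%) had all medium libraries above all low ones, with none below: DUSP5, DUSP6, SPRED3, ETV5 and PHLDA1. PHLDA1, an early target of ERK, was at 229, 240 and 233 CPM and then 256, 267 and 274 CPM (log2 0.18, adjusted p = 0.386). DUSP5, a nuclear phosphatase of ERK, was at 16.7, 16.9 and 17.8 CPM and then 18.7, 20.6 and 20.6 CPM (log2 0.23, adjusted p = 0.659). DUSP6, its cytoplasmic counterpart, had a log2 fold change of 0.20 (adjusted p = 0.832) and SPRED3, an inhibitor of RAF activation, one of 0.23 (adjusted p = 0.539). Between the low and the high dose, 12 of the 16 rose and none fell, where 1437 of all 16964 genes rose.

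Among 23 immediate early genes FOSL1 was the 1 that rose, the median was 0.099, and 5 members had all medium libraries above and 3 below all low ones. JUN, MYC, DUSP1 and KLF2 were above with FOSL1, and JUNB, ATF3 and NR4A2 were below, so the list did not move one way. The 15 tested G1 cyclins and cell cycle inhibitors had a median of -0.005 and no call, with 2 above without overlap and 3 below (CDKN1A -0.24, CDKN2B -0.12 and CDKN2C -0.12). CCND1, the G1 cyclin D1 of that list, was at 210, 211 and 215 CPM and then 246, 245 and 241 CPM (log2 0.20, adjusted p = 0.163). PLAUR, the receptor of the protease urokinase, was at 60.5, 60.5 and 54.5 CPM and then 67.9, 72.3 and 65.0 CPM (log2 0.22, adjusted p = 0.251). Neither passed the test, and neither had overlapping groups. The 19 tested matrix proteases and their inhibitors had a median of -0.016.

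Hypoxia and glycolysis genes held no called member among 28, yet 26 were above 0 and the median was 0.125. Medium libraries all lay above low ones for 10 of them (35.7%) and below for none: VEGFA, NDRG1, BNIP3, EGLN1, PDK1, SLC2A1, HK2, PFKP, PGK1 and ENO2. PDK1, a kinase that shuts off pyruvate dehydrogenase, was at 26.6, 22.5 and 26.5 CPM and then 31.8, 28.3 and 32.3 CPM (log2 0.28, adjusted p = 0.293). PFKP, the platelet-type phosphofructokinase, was at 200, 205 and 190 CPM and then 230, 226 and 217 CPM (log2 0.18, adjusted p = 0.326). EGLN1, an oxygen-sensing prolyl hydroxylase, and HK2, a hexokinase, had log2 fold changes of 0.16 and 0.17 (adjusted p = 0.444 each). Between the low and the high dose 16 of the 28 rose and none fell, where 1437 of all 16964 genes rose. ANGPTL4 was kept in the list of PPAR and lipid droplet genes, where it was the 1 of 18 that rose and the median was -0.024.

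**Figure D3:**
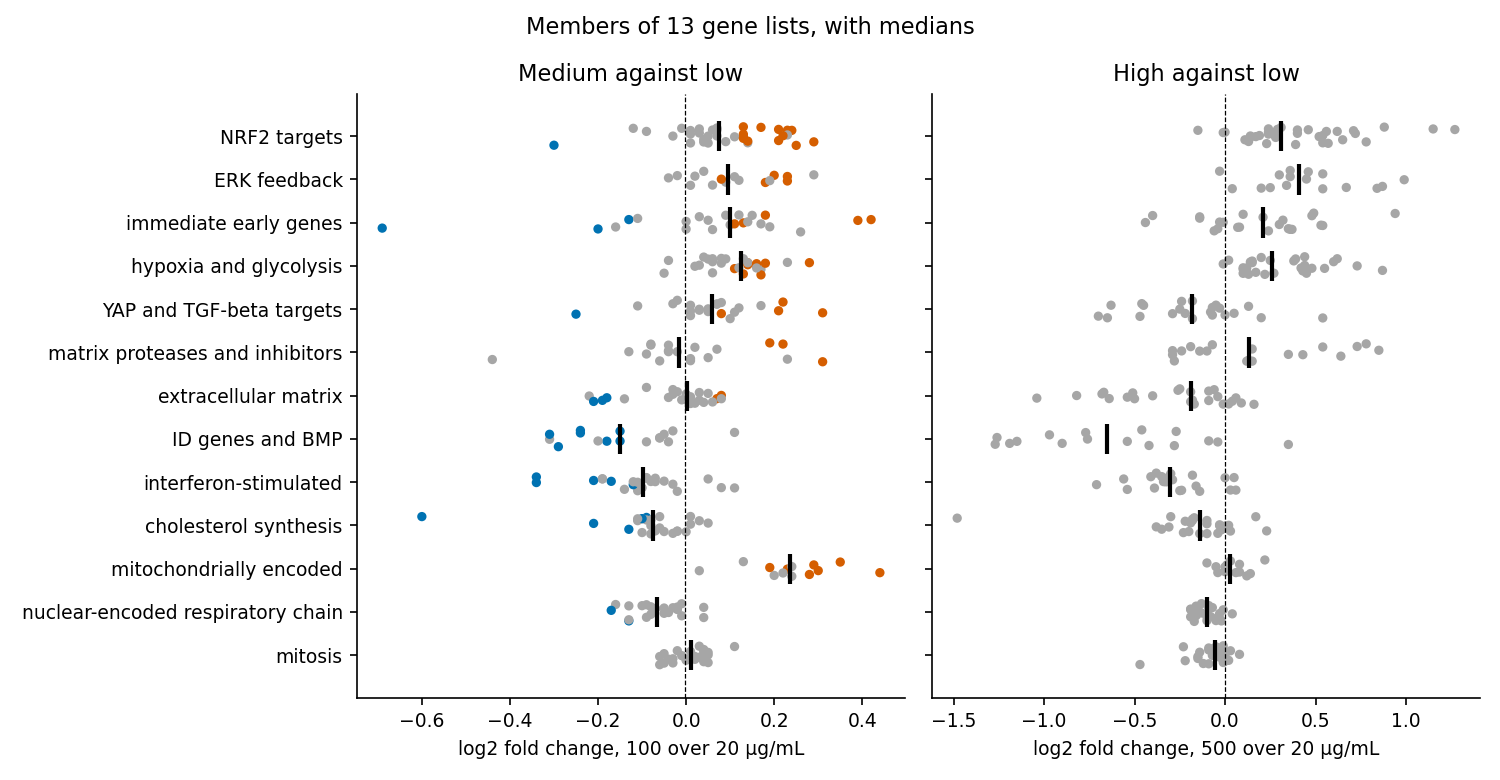
Log2 fold changes of the tested members of 13 gene lists between the medium and low doses (left) and the high and low doses (right), each point a gene and each bar the median of its list; the dashed line is the median of all genes. On the left, genes with all medium libraries above all low ones are orange and those with all below are blue; the right panel has its own scale and no such colours. NRF2 targets, ERK feedback and hypoxia genes lay mostly right of the line in both panels, and mitochondrially encoded genes had medians of 0.236 on the left and 0.027 on the right.

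On the falling side, none of 16 ID and BMP genes was called, but 7 (43.8%) had all medium libraries below all low ones and none above, among them ID1, ID2, ID3, BMP4, HEY1 and ATOH8. Their median was -0.15, and NOG was the 1 member above 0. ID proteins bind and block basic helix-loop-helix factors and are targets of BMP signalling. ID3 was at 236, 261 and 233 CPM and then 214, 228 and 214 CPM (log2 -0.15, adjusted p = 0.539). ATOH8, a helix-loop-helix factor, was at 34.7, 33.4 and 30.4 CPM and then 28.5, 27.9 and 27.2 CPM (log2 -0.24, adjusted p = 0.343). BMP4, a ligand, and HEY1, a repressor downstream of Notch and BMP, had log2 fold changes of -0.29 and -0.31 (adjusted p = 0.592 and 0.44). Between the low and the high dose, 11 of the 16 fell and none rose, with a median of -0.65. Of all 16964 genes, 1368 fell there.

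Interferon-stimulated genes had a median of -0.099, with no called member among 23, and 5 members (21.7%) with all medium libraries below all low ones. IFI44L was at 32.4, 31.2 and 32.9 CPM and then 26.6, 26.8 and 30.1 CPM (log2 -0.21, adjusted p = 0.728). IRF7, a regulator of interferon genes, was at 5.53, 5.23 and 5.13 CPM and then 4.11, 4.51 and 3.96 CPM (log2 -0.34, adjusted p = 0.758). Genes of cholesterol synthesis had a median of -0.075, with no call among 25 and 5 (20%) below, such as DHCR7, which makes cholesterol in its last step (log2 -0.21, adjusted p = 0.627). Of 10 glucocorticoid-responsive genes none was called, 5 (50%) had all medium libraries below all low ones and 1 (10%), the phosphatase DUSP1 (log2 0.18), had them above. KLF9, a transcription factor, was at 80.9, 69.0 and 76.0 CPM and then 64.4, 60.8 and 67.2 CPM (log2 -0.24, adjusted p = 0.393), and GLUL, the glutamine synthetase, had a log2 fold change of -0.19 (adjusted p = 0.373).

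The matrix genes had a median close to that of all genes. None of 25 was called, their median was 0.002, and 2 lay above and 3 below without overlap. Between the low and the high dose 14 of them fell, where 1368 of all 16964 genes did. COL1A2, a chain of type I collagen, was at 1625, 1548 and 1592 CPM and then 1403, 1392 and 1379 CPM (log2 -0.19, adjusted p = 0.231). The 3 medium libraries of COL1A2 were below the low ones, and the high dose libraries lower still (986, 952 and 1026 CPM). The 22 YAP and TGF-beta targets had a median of 0.059 here and -0.181 between the low and the high dose. CCN1, a matrix-associated YAP target, was highest at the medium dose, and its low and high dose libraries overlapped: 655, 673 and 722 CPM at the low dose, 746, 784 and 844 CPM at the medium dose (log2 0.21, adjusted p = 0.659) and 583, 655 and 721 CPM at the high dose.

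All 13 protein-coding genes of the mitochondrial genome were above 0, with a median of 0.236 and no call. With no filter on low counts, where 125 genes were called in all, these included all 13 but MT-ND3 and MT-CO1. MT-ND6 was also called in the fits of the 9 Aucklandiae libraries and of the 6 libraries alone. That made 3 of 16 alternatives for MT-ND6, and none of the 6 fits with 1 library left out. MT-ND2 and MT-ND5 were called in 1 of 16 each. For 7 of the 13 genes (53.8%) all medium libraries lay above all low ones. MT-ND6, a subunit of respiratory complex I, was at 833, 861 and 961 CPM and then 1305, 1208 and 1096 CPM (log2 0.44, adjusted p = 0.533). MT-ND2, another, was at 4931, 5423 and 5948 CPM and then 7472, 6252 and 6995 CPM (log2 0.35, adjusted p = 0.64). These genes share 1 source per library: the mitochondrial share of counts was 8.26%, 9.34% and 9.87% in the low libraries and 10.34%, 9.76% and 10.76% in the medium ones, so that it overlapped, and its part in the values was not tested. It was 8.94%, 8.98% and 8.77% at the high dose, where the 13 genes had a median of 0.027 over the low dose. The 23 nuclear-encoded genes of the respiratory chain had a median of -0.065, with 2 of them above 0 and none called.

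Genes of cell division had values close to 0. None of 24 mitosis genes was called or lay apart between the groups, and their median was 0.011. Of 24 DNA replication genes none was called, with a median of -0.002. Heat shock genes had a median of -0.004 over 18, and the unfolded protein response -0.039 over 19, again with no call. MTOR, whose kinase couples growth to nutrients, had a log2 fold change of 0.01 (adjusted p = 1), and AHR, the aryl hydrocarbon receptor, 0.05 (adjusted p = 0.994). NQO1 was the 1 gene called of 10 tested targets of that receptor, and their median was 0.021.

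Several genes whose large changes at 500 µg/mL were known beforehand had small or uncertain values at this step. CXCL8, the neutrophil chemokine interleukin-8, was at 3.07, 3.04 and 3.65 CPM and then 3.92, 4.44 and 4.97 CPM, without overlap (log2 0.45, adjusted p = 0.533), and at 10.1, 11.0 and 10.7 CPM at the high dose. THBD, the endothelial anticoagulant receptor thrombomodulin, was at 10.1, 9.87 and 9.05 CPM, then 11.8, 11.7 and 10.8 CPM (log2 0.24, adjusted p = 0.659), and then 34.1, 34.3 and 30.4 CPM. For both, the upper step held the larger part of the difference.

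LGR6, a receptor for R-spondins, was at 4.69, 5.65 and 4.44 CPM and then 3.47, 3.17 and 3.12 CPM (log2 -0.59, adjusted p = 0.327), and at 1.51, 1.3 and 1.52 CPM at the high dose. SAMD11 was at 168, 147 and 137 CPM, then 130, 134 and 119 CPM (log2 -0.24, adjusted p = 0.44), and then 50.1, 49.6 and 51.0 CPM. BMF, a death-promoting member of the BCL2 family, was at 3.41, 3.68 and 3.49 CPM and then 2.78, 2.91 and 2.64 CPM (log2 -0.34, adjusted p = 0.771). None of these 5 genes passed the test, and in each the medium libraries did not overlap the low ones. Over all genes the shares without overlap were 5.16% above and 5.87% below. HMOX1, fixed by name in the same way, had groups that overlapped. The comparison of the high and low doses shares the low libraries, so a separation in the same direction is partly built in. It is given as a description only.

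The step was then set against a 5-fold step of 2 other extracts. Polygalae Radix, in the same library set, was given at 10 and 50 µg/mL, and Schisandrae Fructus, in another set, at the same 20 and 100 µg/mL. The Polygalae step called 2945 of 16964 genes (17.4%) and the Schisandrae step 160 of 17241 (0.928%). The steps of Aucklandiae and Polygalae, which differ in dose, differed at 1281 genes (7.55%) by edgeR's test of the difference itself. Those of Aucklandiae and Schisandrae differed at 3 (0.0174%), where 1482 genes had an unadjusted p under 0.05 and DESeq2 gave 36 genes.

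Of the 7 called genes described above, 4 differed from the Polygalae step, where 7.55% of all genes did. The 7 were chosen for a call in the Aucklandiae step, which is 1 term of the difference. Neither this count nor the sizes of their differences are free of that choice. SFRP2 rose with Polygalae (49.8, 46.1 and 50.4, then 56.6, 52.9 and 56.1 CPM, adjusted p = 0.0226) and fell with Aucklandiae, a difference of -0.51 (SE 0.08, adjusted p = 1.73e-04). The gene thus moved in opposite directions in the steps of the extracts. ANGPTL4 was at 10.3, 10.0 and 10.9 CPM and then 10.5, 9.24 and 9.56 CPM with Polygalae, with overlap, and differed by 0.70 (SE 0.13, adjusted p = 0.00127).

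FTH1 rose more with Polygalae (log2 0.66, difference -0.42, SE 0.06, adjusted p = 1.03e-04), and LYPD1 fell more (log2 -0.53, difference 0.26, SE 0.06, adjusted p = 0.0128). For FOSL1, NQO1 and CLIC3 the differences were 0.19 (SE 0.09), 0.02 (SE 0.06) and 0.29 (SE 0.13) and did not pass (adjusted p = 0.262, 0.899 and 0.227). Other members of the NRF2 list, chosen after their values were seen, also differed: HMOX1 had a log2 fold change of 1.71 with Polygalae (difference -1.57, adjusted p = 4.69e-10), FTL 0.87 (difference -0.64, adjusted p = 7.98e-06) and SRXN1 0.70 (difference -0.49, adjusted p = 8.58e-05). In a fit of all 60 libraries the differences of FTH1, LYPD1 and FTL did not pass (adjusted p = 0.137, 0.186 and 0.0645). The list's median was 0.381 in the Polygalae step and 0.074 in the Aucklandiae step.

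None of the 7 genes differed between the Aucklandiae and Schisandrae steps at equal doses. In the Schisandrae step ANGPTL4 (0.47, adjusted p = 0.00587) rose, and LYPD1 (-0.32, adjusted p = 0.00511) and SFRP2 (-0.37, adjusted p = 5.76e-04) fell. ANGPTL4 was at 12.3, 11.2 and 11.2 CPM and then 16.4, 15.1 and 16.5 CPM there, close to its Aucklandiae levels, and the difference between the steps was 0.14 (SE 0.12, adjusted p = 0.811). The differences of the other 6 ran from -0.38 for CLIC3 (SE 0.14, adjusted p = 0.445) to 0.32 for FOSL1 (SE 0.11, adjusted p = 0.381) and FTH1 (SE 0.08, adjusted p = 0.196). A p that misses the threshold does not show that the steps were alike. The 3 genes that differed were TXNIP, an inhibitor of thioredoxin, FAM13B and SNRPA1, a spliceosome protein, named after their values were seen. None of the 3 was called in the Aucklandiae step (TXNIP -0.05, FAM13B -0.04 and SNRPA1 -0.01), and in the Schisandrae step they were at 1.22, -0.84 and 0.42 on the log2 scale.

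**Figure D4:**
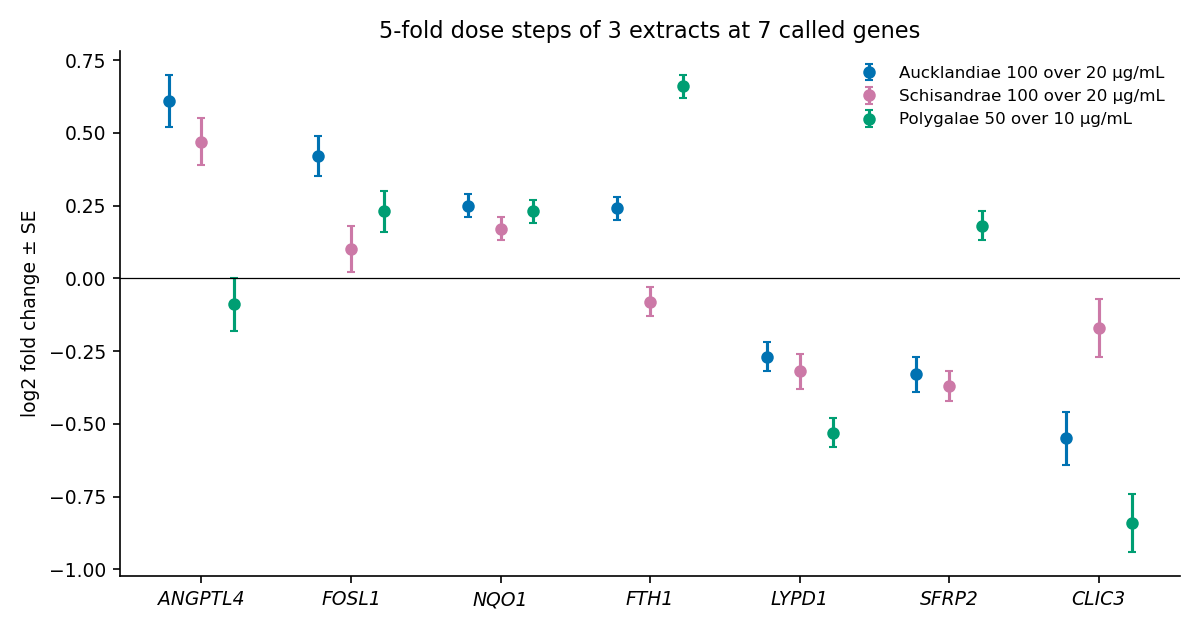
Log2 fold change ± SE of 7 called genes in the steps from 20 to 100 µg/mL of Aucklandiae (blue) and Schisandrae (pink) and from 10 to 50 µg/mL of Polygalae (green). ANGPTL4 stood at 0.61, 0.47 and -0.09, and SFRP2 at -0.33, -0.37 and 0.18, in that order.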

How the data were processed

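Values are expected counts (RSEM), which the authors deposited as 1 table of 60675 identifiers over 60 libraries of total RNA, made with a directional mRNA kit and paired reads. Per the submitters' processing notes, the tools were FastQC 0.11.9, Trim Galore 0.6.5, RSEM 1.3.3 and STAR 2.7.3a and the build GRCh38. The sources used here do not name the strand setting or the annotation release. The series description says that samples of low RNA concentration were excluded before deposit. Values were rounded before testing (11.02% of those deposited had a fractional part).

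Groups came from the treatment labels. The 18 libraries of the set (3 doses each of Aucklandiae and Polygalae) were fitted together by the quasi-likelihood method (edgeR 4.0.16 under R 4.3.3), with group means, no covariate, 12 residual degrees of freedom and TMM factors over all 60 libraries. Fits of all 60 libraries, and of 59 without Liriopis_high replicate 1, were alternatives. The filter used a minimum count of 10 and kept 16964 genes. The biological coefficient of variation was 5.42% (common dispersion 0.00294). Calls were made at a Benjamini-Hochberg adjusted p under 0.05 over all tested genes, and every adjusted p printed is from edgeR unless DESeq2 is named. SE values come from the log2 fold change and its F statistic. Differences between steps were contrasts of the same fit, or of a fit with the 9 Schisandrae libraries added (27 libraries, 17241 genes). Gene coordinates are those of GENCODE 29.

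Genes were named when called, not overlapping between groups, at 5 CPM or more in the higher group, and with a symbol that is not that of a clone, antisense, intergenic or pseudogene transcript. The 15 largest each way were eligible, and all 8 called genes passed, of which 1 is not reported here, nor are some members of the lists. Also named were up to 4 members of a list with the smallest p, and 12 genes fixed by name. The groups, the 41 gene lists and the naming rule were chosen with earlier results of these data known. No set test was run. Alternatives were other scalings, filters, library choices, DESeq2 1.42.0, a replicate block and each library left out. The code was tested on simulated data.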

Additional observations from a re-analysis of the deposited data

Results flagged for a closer look

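The steps of Aucklandiae (20 to 100 µg/mL) and Polygalae (10 to 50 µg/mL) differed by the test of the difference itself at 1281 genes (7.55%). The called genes below were chosen for their Aucklandiae step, which is 1 term of that difference. Among the genes named here the log2 difference, Aucklandiae minus Polygalae, was 0.70 for ANGPTL4 and 0.26 for LYPD1. It was -0.51 for SFRP2, -0.42 for FTH1, -1.57 for HMOX1, -0.64 for FTL and -0.49 for SRXN1. The same test against the Schisandrae step at equal doses passed at 3 genes (TXNIP, FAM13B and SNRPA1), none of them called in the Aucklandiae step. With 3 libraries a group, single libraries were not tested for standing apart.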

How the results depend on the processing

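The number of genes called between the medium and low doses stayed at 8 with DESeq2 size factors and with upper quartile factors in edgeR, and was 9 with the 9 Aucklandiae libraries alone and 11 with a minimum count of 30. It was 125 with no filter on low counts, 23 with DESeq2 (7 of the 8 among them, CLIC3 having no adjusted p), 16 with 59 libraries, 5 with the 6 libraries only and 2 (ANGPTL4 among them) with all 60 libraries. With each library left out in turn it ran from 1 to 4; the cause was not tested. The log2 fold changes of the 7 genes kept their sign, and ran over the alternatives from 0.56 to 0.68 for ANGPTL4, 0.39 to 0.45 for FOSL1, 0.24 to 0.29 for NQO1, 0.22 to 0.28 for FTH1, -0.28 to -0.24 for LYPD1, -0.35 to -0.29 for SFRP2 and -0.62 to -0.48 for CLIC3. Some values that were not called moved by more than 1.5 times with 1 low library left out: HMOX1 from 0.14 to 0.09 (replicate 3), DUSP6 from 0.20 to 0.13 and SAMD11 from -0.24 to -0.15 (replicate 1), and ID3 from -0.15 to -0.09 (replicate 2).

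With the replicate number as a block, 8 genes were called, 7 of the 8 among them, with FTH1 lost and F3 added. Deviations of same-numbered medium and low libraries correlated at 0.06, 0 and 0.07, and those with different numbers at -0.1 to 0.05. With 3 libraries a group, these values cannot settle whether the numbers pair the libraries. The block gave 105 genes for the Schisandrae step (160 without it).

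With all 60 libraries the high against medium dose gave 962 genes, the Polygalae step 1939, the difference of the Aucklandiae and Polygalae steps 723, the Schisandrae step 58 and the difference from it 1. With 59 libraries the last 2 were 291 and 11, with no filter 324 and 148, and with DESeq2 244 and 36. Leaving out 1 library gave 949 to 1020 genes (high against medium), 2063 to 2477 (high against low), 2182 to 2593 (Polygalae), 892 to 1297 (Aucklandiae minus Polygalae), 33 to 81 (Schisandrae) and 2 to 4 (Aucklandiae minus Schisandrae). SFRP2, ANGPTL4, HMOX1 and SRXN1 kept their call of a difference from the Polygalae step in 20 of 20 alternatives, FTH1 and FTL in 19 and LYPD1 in 18. The difference for NQO1, not called, turned to -0.01 without Polygalae_low replicate 3. The medians of 9 lists were recomputed, and 8 kept their sign, the exception being the matrix genes (-0.021 to 0.027). With 1 library left out the medians ran from 0.076 to 0.127 for NRF2 targets, 0.062 to 0.134 for ERK feedback, 0.05 to 0.114 for immediate early genes, -0.142 to -0.055 for interferon-stimulated genes and -0.073 to -0.046 for cholesterol synthesis. CXCL8 and BMF, with log2 changes of 0.45 and -0.34 that did not pass the test, were read from as few as 57 and 66 counts in a low library.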

Other observations

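Of 25 lysosome and autophagy genes none was called. Their median was -0.05 on the log2 scale, and 6 members (24%) had all medium libraries below all low ones, against 2 above. TFEB, the regulator of lysosomal genes, was among them at -0.25, and GABARAPL1, an autophagy protein, at -0.22. Of 13 tested BCL2 family genes none was called, and their median was -0.025. All medium libraries lay below all low ones for 4 (30.8%, against 5.87% of all genes) and above for none. These were the death-promoting BMF (-0.34), BBC3 (-0.49), HRK (-1.03) and BID (-0.13). The other members overlapped, among them BCL2L11 (-0.14), BAD (-0.1), BAK1 (0.02), BAX (0.07) and PMAIP1 (0.08), which also promote death. Between the low and the high dose 4 of the 13 rose and 1 fell, with a median of 0.03. Of all 16964 genes, 1437 rose and 1368 fell there. BMF (-1.29), BBC3 (-0.55) and HRK (-1.58) were again below 0 in that comparison, and BID (0.18) was above. Nuclear factor kappa B and cytokine genes had a median of 0.104 over 24, with 2 above and 2 below. NPAS2, a partner of the clock factor BMAL1, was at 5.77, 5.81 and 6.56 CPM at the low dose, 7.58, 7.97 and 8.10 CPM at the medium dose (log2 0.39, adjusted p = 0.141) and 10.7, 12 and 11.0 CPM at the high dose. TFEB, GABARAPL1, NPAS2 and the BCL2 family members other than BMF were picked after their values were seen.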
